A study of Mus musculus with 8 samples.

Results

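The genes described here are those of mouse chromosome 7 that start from 10000000 up to 20000000 in mm10, a stretch near the centromere that holds the nuclear factor κB (NF-κB) genes Relb and Bcl3, the nectin-family genes Pvr and Nectin2, the myotonic dystrophy locus around Dmpk and several zinc finger genes. C5ar1, C5ar2, Apoe and Apoc1 also lie there and were left out, which leaves 98 of the 13786 protein-coding genes in the count table. Membership rests on position alone, but the stretch was proposed with the results of the strain comparison known, so counts over it are given as a description and nothing is read from them. RNA was sequenced from CD11c-positive splenocytes of 4 C57BL/6 mice and 4 B6.SLE123 mice, all female, untreated and 7 weeks old, and the labels call the cells dendritic cells. B6.SLE123 mice are congenic: on the C57BL/6 background they carry the lupus susceptibility intervals Sle1, Sle2 and Sle3, of which Sle3 is the one on chromosome 7. Both strains came from one supplier, and the borders of the intervals are not given in the sources used here. The numbers in the genotype labels rise from mouse to mouse, so the strain was read from the sample titles.

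Several of these genes have known parts in antigen-presenting cells. RelB pairs with the p52 product of Nfkb2 at the end of the alternative NF-κB pathway and is needed for splenic dendritic cells to develop, and Bcl-3 is a nuclear IκB family protein that binds p50 and p52. PVR and nectin-2 sit on antigen-presenting and other cells and are bound by receptors of T and NK cells, among them the activating receptor CD226 and the inhibitory receptor TIGIT.

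Counts summed to between 25761789 and 32931045 per C57BL/6 mouse and between 25563070 and 37367094 per B6.SLE123 mouse, and levels are given as CPM, counts scaled to library size with TMM factors. The test was edgeR's quasi-likelihood fit, with p adjusted over all 13786 genes; log2 fold changes are B6.SLE123 over C57BL/6, and ± after one is its standard error. Genes of the dendritic cell marker list were present, and 6 of 6 (Itgax, Flt3, Zbtb46, H2-Aa, H2-Ab1 and Cd74) were higher in B6.SLE123 mice. Their list median was 0.27 on the log2 scale. Itgax encodes CD11c, by which the cells were isolated. Markers of other cells also moved: 12 of 12 red pulp macrophage genes were lower in B6.SLE123 mice, their summed level lying between 10849 and 13728 CPM in C57BL/6 mice and between 1682 and 3135 CPM in B6.SLE123 mice, with no marker at 0 in all mice. Of the proliferation list, 10 of 10 genes were higher, at a summed 648 to 713 CPM in C57BL/6 mice and 1182 to 1544 CPM in B6.SLE123 mice. The type 1 dendritic cell list had 7 of 9 genes higher and 1 lower, the B cell list 7 of 9 lower, and the erythroid list 7 of 8 lower. In RNA from such a mixture, fewer cells of a type and less RNA per cell cannot be told apart, and the part of these differences in the values below was not tested.

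Of the 98 genes, 57 (58.2%) had an adjusted p below 0.05, beside 53.4% of all genes in the table. The calls comprised 23 genes higher in B6.SLE123 mice (26.7% of all genes were called higher) and 34 lower (26.6% of all genes were called lower). With more than a 2-fold change required, 19 genes remained, 4 higher and 15 lower, beside 11.1% of all genes, 2.76% higher and 8.29% lower. For 53 of the 98 genes the mice of one strain all lay above those of the other, 19 of them higher and 34 lower in B6.SLE123 mice, beside 48.9%, 24.4% and 24.5% of all genes. The median log2 fold change was -0.07 over the region and -0.002 over all genes, and the median size of the change regardless of sign was 0.28 and 0.25. The genes thus ranged from -5.93 to 2.07 around a centre close to that of the table. In the plot of fold changes in chromosomal order, the 15 falls of more than 2-fold start beyond 16 Mb and stand among genes near 0.

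**Figure D1:**
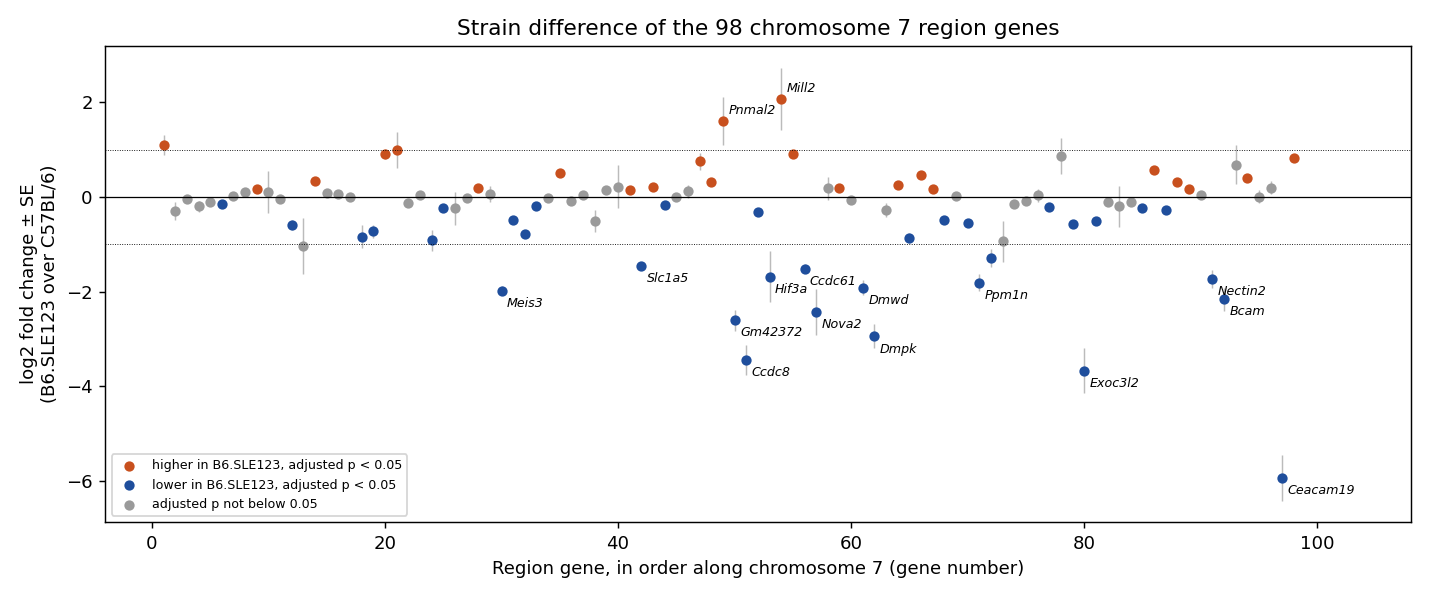
Log2 fold change (B6.SLE123 over C57BL/6, y axis, with standard error bars) of each of the 98 region genes in their order along chromosome 7 (x axis, gene number). Orange and blue points are genes with an adjusted p below 0.05 that were higher or lower in B6.SLE123 mice, grey points are the others, and dotted lines mark 2-fold. Of the 19 called changes beyond 2-fold, 15 lie below 0, down to Ceacam19 at -5.93.

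Only part of the stretch is in the table. GENCODE M21 places 197 protein-coding genes there besides those left out, of which 98 are in the table, where the larger strain median was at least 5 counts for every gene. None of the 25 Vmn1r and 7 Vmn2r pheromone receptor genes, the 13 pregnancy-specific glycoprotein (Psg) genes, the 8 Sult2a sulfotransferase genes or the 7 Obox genes is in it, whereas 9 of 9 Zfp genes and 3 of 11 Ceacam genes are. The measured genes therefore stand in groups, with a gap of 2.59 Mb between the starts of Pla2g4c and Selenow and one of 1.81 Mb between Hif3a and Mill2. From 12 to 14 Mb, 8 of 20 genes were called and 1 of them changed more than 2-fold. The corresponding numbers were 17 and 6 of 28 genes from 16 to 18 Mb and 29 and 11 of 45 genes from 18 to 20 Mb. In this order, 40%, 60.7% and 64.4% of the genes were called, beside 53.4% of all genes. The shares called and changed more than 2-fold were 5%, 21.4% and 24.4%, beside 11.1% of all genes. Of all 990 chromosome 7 genes outside this stretch, 14.5% were called and changed more than 2-fold, beside 19.4% of the 98 genes here. The share was 9.72% of 72 genes from 0 to 10 Mb and 11.8% of 136 genes from 20 to 30 Mb. It was 30.2% of 129 genes from 40 to 50 Mb. Other windows, such as 30 to 40 Mb, were not summarised apart.

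The nearest measured genes on either side of the lower edge were Clcn4 outside, at -0.39 (2878 to 3744 counts in C57BL/6 mice and 2080 to 3189 in B6.SLE123 mice), and Zik1 inside, at 1.09. On either side of the upper edge were Pvr inside, at 0.82, and Zfp180 outside, at 0.04, which starts at 24081924. The other genes next to the lower edge were Gm45844 (-5.16) and Zfp772 (-0.36) outside and Zfp551 (-0.30) and Zfp606 (-0.04) inside. Next to the upper edge were Ceacam16 (0.20) and Ceacam19 (-5.93) inside and Zfp112 (-1.81) and Zfp235 (-0.67) beyond it. Gm45844 had 16 to 24 counts in each C57BL/6 mouse and 0 or 1 in each B6.SLE123 mouse. Zfp112 had 18 to 27 and 4 to 8 counts, so both values rest on few counts.

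Promoter sequences are shown for 4 genes on which the account below turns: Bcl3 and Pglyrp1, which were higher in B6.SLE123 mice, and Dmpk and Ceacam19, which had large falls. They are RefSeq sequences of GRCm38.p6, the assembly on which mm10 is based, running 5′ to 3′ on the gene's strand from 250 bases before to 50 bases after the annotated start, and RefSeq promoters matched 84 of the 98 genes. For Pglyrp1 the RefSeq start lies inside the gene's span in the count table, which begins further upstream. They lie at chr7:19822706-19823005 (minus strand) for Bcl3, chr7:18884440-18884739 (plus strand) for Pglyrp1, chr7:19083608-19083907 (plus strand) for Dmpk and chr7:19887916-19888215 (minus strand) for Ceacam19. Capitals mark matches, on either strand, to the NF-κB consensus, to the PU.1 core GAGGAA or to the AP-1 element TGANTCA.
Bcl3: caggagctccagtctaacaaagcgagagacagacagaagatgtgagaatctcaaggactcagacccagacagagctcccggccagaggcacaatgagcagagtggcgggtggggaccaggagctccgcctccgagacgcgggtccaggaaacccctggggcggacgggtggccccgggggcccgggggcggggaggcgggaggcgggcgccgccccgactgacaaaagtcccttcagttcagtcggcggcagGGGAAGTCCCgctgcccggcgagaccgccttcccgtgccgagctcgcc
Pglyrp1: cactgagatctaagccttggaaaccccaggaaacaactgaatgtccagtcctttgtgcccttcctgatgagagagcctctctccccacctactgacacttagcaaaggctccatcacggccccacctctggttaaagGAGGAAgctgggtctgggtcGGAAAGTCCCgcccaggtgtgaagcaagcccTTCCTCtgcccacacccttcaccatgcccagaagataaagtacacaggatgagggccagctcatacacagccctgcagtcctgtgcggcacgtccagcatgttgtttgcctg
Dmpk: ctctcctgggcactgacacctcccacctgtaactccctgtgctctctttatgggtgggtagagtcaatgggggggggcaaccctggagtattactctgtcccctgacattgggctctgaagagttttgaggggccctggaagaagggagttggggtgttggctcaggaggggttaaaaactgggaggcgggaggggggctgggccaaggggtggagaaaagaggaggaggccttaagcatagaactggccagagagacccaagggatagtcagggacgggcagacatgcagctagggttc
Ceacam19: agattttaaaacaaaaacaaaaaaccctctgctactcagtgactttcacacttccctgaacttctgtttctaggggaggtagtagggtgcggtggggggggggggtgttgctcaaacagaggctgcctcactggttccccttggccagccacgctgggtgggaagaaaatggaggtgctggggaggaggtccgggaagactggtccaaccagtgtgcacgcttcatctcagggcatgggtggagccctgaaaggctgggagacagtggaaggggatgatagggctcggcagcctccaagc
The Bcl3 sequence holds 1 NF-κB match, and that of Pglyrp1 holds 1 NF-κB match and 2 PU.1 cores. None of the 3 motifs was found in these windows of Dmpk and Ceacam19. Of the 101 promoter windows of the region genes, 5.94% held the NF-κB consensus, 27.7% the PU.1 core and 2.97% the AP-1 element, beside 4.51%, 28.3% and 7.81% of all 32851 mouse promoter windows. A match is a stretch of letters and was not examined for binding. All windows are reference sequences. The sequences of B6.SLE123 mice, which carry Sle3 on this chromosome, were not examined and may differ.

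The NF-κB genes Relb and Bcl3 were modestly higher in B6.SLE123 mice. Relb (19606217 to 19629438, minus strand) was at 410, 460, 391 and 446 CPM in C57BL/6 mice and at 519, 511, 506 and 599 CPM in B6.SLE123 mice. Every B6.SLE123 mouse lay above every C57BL/6 mouse, and the change was 0.32 ± 0.07 on the log2 scale (adjusted p = 0.00216 by edgeR's test). Bcl3 (19808462 to 19822770, minus strand) was at 90.2, 101, 98.7 and 100 CPM in C57BL/6 mice and at 117, 117, 139 and 140 CPM in B6.SLE123 mice, again without overlap, a change of 0.40 ± 0.07 on the log2 scale (adjusted p = 0.00066 by the same test). An exon of Bcl3 overlaps Gm16175 on the other strand. The library kit keeps strand, but whether the counting used it is not given in the sources used here, so reads of such pairs are uncertain. Fosb, an AP-1 subunit gene of the immediate early class, was not called. It was at 38.0, 32.4, 18.6 and 12.5 CPM in C57BL/6 mice and at 13.3, 10.7, 23.8 and 4.49 CPM in B6.SLE123 mice, so the strains overlapped and mice of 1 strain differed as much as the strains did. Its log2 fold change of -0.93 (standard error 0.43) did not pass the test (adjusted p = 0.0891), but was -1.39 (adjusted p = 0.0156) without B6.SLE123 replicate 3, -1.17 (adjusted p = 0.0432) without C57BL/6 replicate 4 and -1.02 (adjusted p = 0.0189) with the replicate number as a block in edgeR.

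Of 25 other genes of the NF-κB pathway that lie elsewhere, 8 were higher and 5 lower in B6.SLE123 mice and 12 were not called. Over all genes, 53.4% were called, 26.7% higher and 26.6% lower. The median log2 fold change of the 25 genes was 0.08. The DNA-binding subunit genes Nfkb1 and Nfkb2 were higher, by 0.32 (adjusted p = 0.000448) and 0.20 (adjusted p = 0.00157) in edgeR's test. Rel, at 0.15, and Rela, at -0.004, did not pass it (adjusted p = 0.0551 and 0.944). Cd40, a receptor upstream of the pathway, was higher by 0.47, and Ltbr and Tnfrsf13c, the receptors for lymphotoxin and BAFF, were lower, at -0.44 and -0.49. Map3k14, the kinase of the alternative pathway, was at 0.09 (adjusted p = 0.245). Nfkbiz, another gene of the nuclear IκB family to which Bcl3 belongs, was lower, at -0.57 (118 ± 5.53 CPM in C57BL/6 mice and 79.5 ± 6.56 CPM in B6.SLE123 mice, SD, n = 4). Thus, members of this list were called in both directions and none changed 2-fold.

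**Figure D2:**
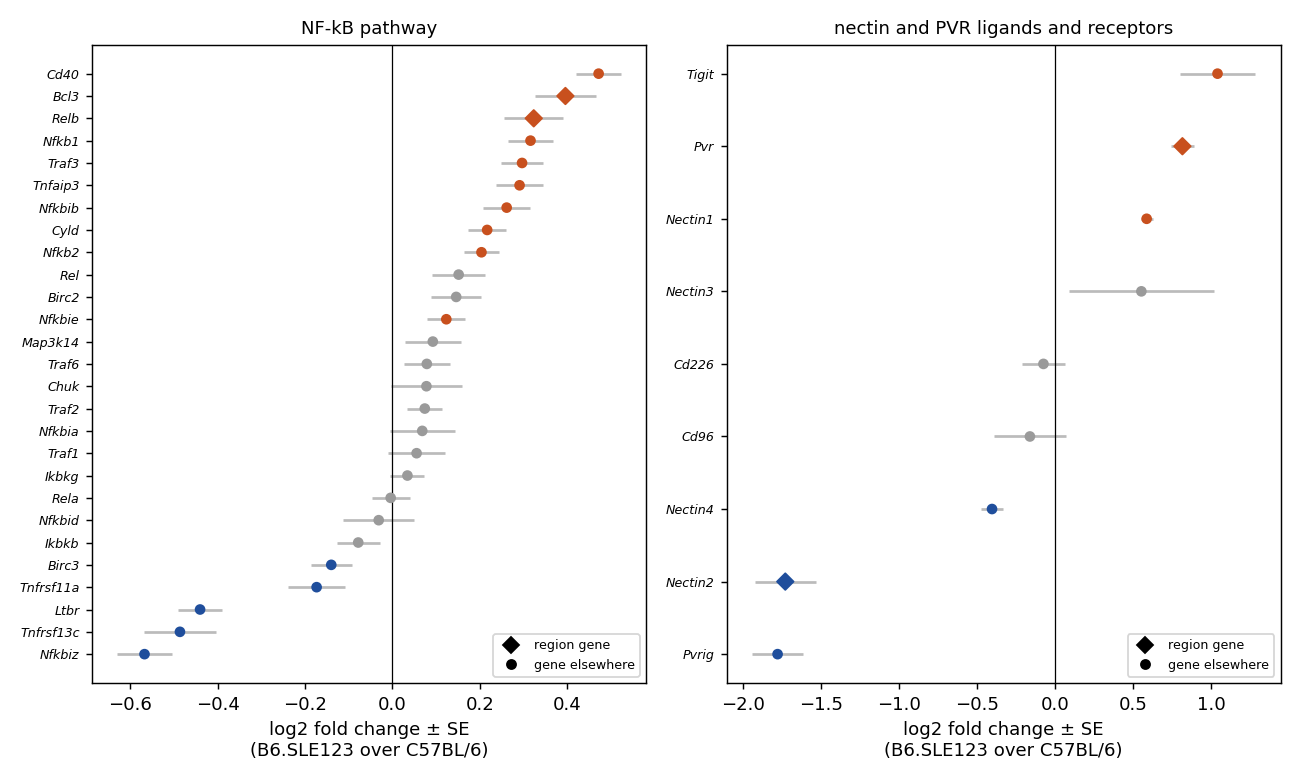
Log2 fold change with standard error (x axis, B6.SLE123 over C57BL/6) of the 27 genes of the NF-κB pathway list (left) and of the 9 genes of the nectin and PVR list in the table (right). Diamonds are genes of the chromosome 7 region and circles genes elsewhere, with orange for higher, blue for lower and grey for an adjusted p of 0.05 or more. Bcl3 (0.40) and Relb (0.32) lie above 0 on the left, and Pvr (0.82) and Nectin2 (-1.73) lie on opposite sides of 0 on the right.

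Genes for surface and secreted immune proteins moved in both directions, and 7 of the 8 measured were called, 4 higher and 3 lower, beside 53.4%, 26.7% and 26.6% of all genes. Where every sample had to reach 10 counts, which removes Bcam, Ceacam19 and Mill2, 4 of the remaining genes were called. Ceacam15, which was not placed in this group, was not called (0.22, adjusted p = 0.716 by edgeR's test). Pvr (19903578 to 19921160, minus strand) was at 19.5, 19.1, 20.5 and 18.6 CPM in C57BL/6 mice and at 37.6, 30.8, 36.6 and 31.9 CPM in B6.SLE123 mice, a change of 0.82 ± 0.07 on the log2 scale (adjusted p = 5.55e-06 by edgeR's test). Nectin2 (19716644 to 19750483, minus strand), which encodes a ligand of the same receptor CD226, went the other way. It was at 3.97, 4.03, 4.30 and 4.77 CPM in C57BL/6 mice and at 0.949, 0.994, 1.54 and 1.73 CPM in B6.SLE123 mice, a change of -1.73 ± 0.19 on the log2 scale (adjusted p = 2.9e-05 by edgeR's test). Neither pair of groups overlapped, and an exon of Nectin2 overlaps Gm20512 on the other strand. Among the family's other genes, Nectin1 was higher by 0.59 and Nectin4 lower at -0.40. Of the receptors, Tigit was higher by 1.04 and Pvrig, which encodes a receptor of nectin-2, lower at -1.78, both past edgeR's test (adjusted p = 0.00399 and 6.81e-06), while Cd226 was at -0.07 and Cd96 at -0.16 (adjusted p = 0.675 and 0.583). Levels of Tigit were low, 0.626 ± 0.0756 CPM in C57BL/6 mice and 1.31 ± 0.337 CPM in B6.SLE123 mice (SD, n = 4).

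Pglyrp1 (18871331 to 18890459, plus strand) encodes a secreted peptidoglycan recognition protein best known from neutrophil granules. It was at 37.5, 42.2, 42.9 and 44.8 CPM in C57BL/6 mice and at 75.4, 74.6, 80.5 and 84.3 CPM in B6.SLE123 mice, which did not overlap, and rose by 0.91 on the log2 scale (standard error 0.06, adjusted p = 1.01e-06 by edgeR's test). The summed level of the 7 measured neutrophil markers was between 82.3 and 90.0 CPM in C57BL/6 mice and between 26.3 and 39.5 CPM in B6.SLE123 mice, but that sum was mostly Csf3r (76.5 ± 2.64 CPM and 25.2 ± 3.18 CPM, SD, n = 4). Of the others, Camp and Ngp were called higher and Retnlg lower, and S100a8, S100a9 and Mpo were not called. Mean levels of Camp, Ngp and Retnlg were low, at 0.154, 0.633 and 0.497 CPM in C57BL/6 mice. In B6.SLE123 mice they were 0.513, 1.88 and 0.215 CPM, and the strains overlapped in Camp and Ngp. Ptgir, the prostacyclin receptor gene, was at 3.10, 3.26, 2.87 and 2.12 CPM and at 6.07, 4.0, 4.97 and 4.02 CPM, which is a log2 fold change of 0.75 (adjusted p = 0.00446 by edgeR's test). Bcam, which encodes the laminin-binding Lutheran glycoprotein, fell from 1.48 ± 0.193 CPM to 0.332 ± 0.0856 CPM (SD, n = 4, log2 fold change -2.16, adjusted p = 2.96e-05 from edgeR). Mill2, an MHC class I-like gene, had 0 to 4 counts in each C57BL/6 mouse and 6 to 16 in each B6.SLE123 mouse. Its call (log2 fold change 2.07, adjusted p = 0.0212) was lost in edgeR without B6.SLE123 replicate 4 (1.57, adjusted p = 0.0527), and the gene reached the table's minimum of 5 counts in B6.SLE123 mice only.

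Ceacam19 (19875742 to 19887965, minus strand), a member of the carcinoembryonic antigen family next to Pvr, had almost no counts in B6.SLE123 mice. It had 60, 36, 51 and 45 counts in C57BL/6 mice and 1, 0, 2 and 0 counts in B6.SLE123 mice. Summed over mice and scaled to library size, the level was 70.9 times higher in C57BL/6 mice, with an exact 95% interval of 23.9 to 347 that covers counting error only. It was the single region gene that had at most 3 counts in every mouse of a strain while averaging 20 or more in the other. Ceacam16, its neighbour, was at 46.0 to 57.5 CPM in C57BL/6 mice and at 41.4, 62.5, 66.9 and 70.1 CPM in B6.SLE123 mice. The strains overlapped (log2 fold change 0.20, adjusted p = 0.257 by edgeR's test), and without B6.SLE123 replicate 1 the value was 0.34 (adjusted p = 0.00349). Gm19345, at 0.01 (adjusted p = 0.974), overlaps exons of Ceacam16 on the other strand.

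The largest fall among called genes averaging 100 counts or more in either strain was that of Dmpk (19083849 to 19093821, plus strand), which encodes a serine/threonine kinase and whose repeat expansion causes myotonic dystrophy in humans. Dmpk was at 172, 143, 185 and 144 CPM in C57BL/6 mice and at 14.3, 12.4, 31.7 and 25.9 CPM in B6.SLE123 mice. The lowest C57BL/6 mouse was far above the highest B6.SLE123 mouse, and the change was -2.94 ± 0.26 on the log2 scale (adjusted p = 4.45e-06 by edgeR's test). Dmwd (19076227 to 19082776), the WD-repeat gene just before Dmpk on the same strand, was at 17.9, 15.7, 18.2 and 16.3 CPM and at 3.29, 3.68, 5.62 and 5.59 CPM, a change of -1.91 ± 0.16 on the log2 scale (adjusted p = 3.01e-06 by the same test). Six5 (19094594 to 19098549), the homeobox gene just after Dmpk, was not called. It was at 6.39 to 7.20 CPM in C57BL/6 mice and at 4.78, 4.33, 6.27 and 7.24 CPM in B6.SLE123 mice, which overlapped (change of -0.28 ± 0.15, adjusted p = 0.147), although without B6.SLE123 replicate 4 the value was -0.42 (adjusted p = 0.0254). Further along, the protein phosphatase gene Ppm1n was at 12.6 to 17.1 CPM in C57BL/6 mice and at 3.77, 2.82, 5.47 and 5.20 CPM in B6.SLE123 mice (log2 fold change -1.81, adjusted p = 1.32e-05). Rtn2, the reticulon gene beside it, was at -1.29 (adjusted p = 0.000246).

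Within the B6.SLE123 group, Dmpk, Dmwd, Ppm1n, Nectin2 and Meis3 were each lower in replicates 1 and 2 than in replicates 3 and 4. The other 3 of the 8 largest falls, Slc1a5, Ccdc61 and Qpctl, did not have this split. The summed red pulp macrophage level had the same split, at 2075 and 1682 CPM in replicates 1 and 2 and 2680 and 3135 CPM in replicates 3 and 4. The split was not particular to falls: Bcl3 and Pglyrp1, which rose, and Six5, which was not called, had it too. Other rises, such as those of Lig1 and Pvr, did not have it. Whether the macrophage share has a part in the falls of these genes was not tested.

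Other falls involved transcription and transport genes. Meis3 (16175090 to 16186504, plus strand), a TALE homeobox factor gene, was at 25.8, 24.6, 25.8 and 23.9 CPM in C57BL/6 mice and at 5.63, 5.83, 6.48 and 7.60 CPM in B6.SLE123 mice, a change of -1.98 ± 0.09 on the log2 scale (adjusted p = 1.2e-07 by edgeR's test). Slc1a5 (16781340 to 16798274, plus strand), which encodes the neutral amino acid and glutamine transporter ASCT2, had values close together within each strain. They were 154, 149, 151 and 154 CPM in C57BL/6 mice and 53.2, 57.8, 55.6 and 54.2 CPM in B6.SLE123 mice, which is a log2 fold change of -1.46 (standard error 0.04). Its adjusted p of 4.91e-09 in edgeR was the smallest of the region. Ccdc61, which encodes a coiled-coil protein of the centriole, was at 20.2 to 25.7 CPM and at 7.28 to 8.76 CPM (log2 fold change -1.51), and Qpctl, a Golgi enzyme gene whose product acts on CD47, at 12.2 to 16.1 CPM and at 6.30 to 8.37 CPM (log2 fold change -0.86). Exons of Qpctl overlap those of Fbxo46 on the other strand, which was higher by 0.25.

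Some lower-count genes fell more steeply. Ccdc8, a gene of the growth-related 3M complex, and its neighbour Gm42372 had 41 to 68 and 74 to 98 counts in each C57BL/6 mouse, and 4 to 6 and 13 to 19 counts in each B6.SLE123 mouse. Their log2 fold changes were -3.44 and -2.60 (adjusted p = 6.49e-06 and 4.21e-06 by edgeR's test). Exoc3l2, an exocyst-related gene, had 35 to 59 counts against 4, 6, 0 and 5, and its summed level was 13.0 times higher in C57BL/6 mice (exact 95% interval 7.67 to 23.7, counting error only). Nova2, which encodes a neuronal splicing factor, had 6 to 19 counts against 2 or 3 (log2 fold change -2.43, adjusted p = 0.00153). Of the 98 genes, 8 reach the table's minimum strain median of 5 counts in 1 strain only, among them Nova2, Hif3a, Exoc3l2, Ceacam19, Mill2 and Pnmal2, which were called. Such genes are in the table through the strain where they are high, so their tests are not independent of that filter. Ccdc8, Gm42372, Exoc3l2, Nova2, Ceacam19, Bcam, Hif3a and Rtn2 make up the 8 of 15 falls of more than 2-fold that rest on means under 100 counts in both strains. The call of Hif3a (-1.68) was lost in edgeR without C57BL/6 replicate 2 (-1.19, adjusted p = 0.0589).

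**Figure D3:**
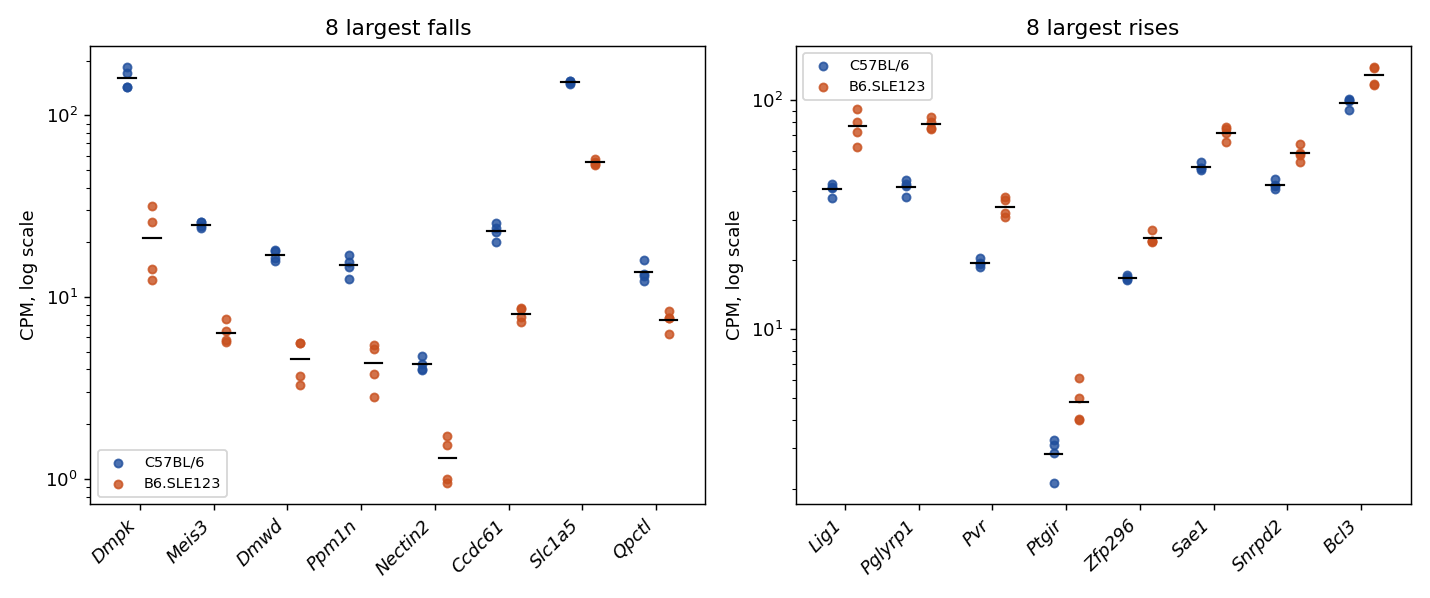
CPM on a log scale (y axis) of the 8 region genes with the largest falls (left) and the 8 with the largest rises (right) among those called, without overlap and averaging 100 counts or more in either strain. Each point is a mouse, blue for C57BL/6 and orange for B6.SLE123, and each bar is the mean of 4 mice. Falls reach from 161 to 21.1 CPM in Dmpk, and every rise stays below 2-fold.

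Further rises are those of Lig1, Sae1 and Snrpd2, named by size. Lig1 (13277283 to 13311433, plus strand), the DNA ligase gene of replication, was at 41.7, 43.1, 37.4 and 41.4 CPM in C57BL/6 mice and at 80.6, 91.3, 72.6 and 62.6 CPM in B6.SLE123 mice, a change of 0.91 ± 0.10 on the log2 scale (adjusted p = 2.36e-05 by edgeR's test). Its exons overlap those of Zswim9 on the other strand, which was lower at -0.73. Sae1, a subunit gene of the SUMO-activating enzyme, was at 49.5 to 53.4 CPM and at 65.5 to 76.1 CPM (log2 fold change 0.50), and Snrpd2, which encodes an Sm core protein of the spliceosome, at 40.7 to 45.1 CPM and at 53.8 to 64.4 CPM (log2 fold change 0.46). In each of these 3 genes the B6.SLE123 mouse with the lowest value was replicate 4, as it also was in Qpctl and Gpr4, which fell. That mouse also had the lowest summed level of the proliferation list in its strain, 1182 CPM, and whether proliferation has a part in these rises was not tested. Of the excision repair genes, Ercc1 was at -0.15 (adjusted p = 0.0676), and at -0.19 (adjusted p = 0.0429) without B6.SLE123 replicate 4. Ercc2, the TFIIH helicase gene, was at -0.21 (adjusted p = 0.0278), and its call was lost when C57BL/6 replicate 1, 2 or 3 or B6.SLE123 replicate 1 or 2 was left out (adjusted p from 0.0529 to 0.0638). Exons of both overlap genes on the other strand, Cd3eap and Klc3. Of 20 other nucleotide excision repair genes, 9 were higher and 1 lower, beside 26.7% and 26.6% of all genes. Those higher included the replication protein A genes Rpa1, Rpa2 and Rpa3 at 0.50, 0.52 and 0.41. Bbc3, the gene of the pro-apoptotic protein PUMA, was at -0.02 (adjusted p = 0.856).

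The zinc finger and KRAB-linked group holds 15 genes, among them Trim28. Of these, 3 were higher, Trim28 included, 3 lower and 9 not called (median -0.04), beside 53.4% of all genes called. Zik1 was the one that was called and changed more than 2-fold. Zik1 (10487229 to 10495394, minus strand) had 22 to 58 counts in each C57BL/6 mouse and 65 to 109 in each B6.SLE123 mouse, a change of 1.09 ± 0.21 on the log2 scale (adjusted p = 0.00131 by edgeR's test). Zfp296 was at 16.3 to 17.1 CPM and at 24 to 27 CPM (log2 fold change 0.57), and its exons overlap those of Gemin7 on the other strand, which was lower at -0.23. Zfp446 was lower, at -0.59, and so was Mzf1, at -0.84. Trim28, whose product is the corepressor that KRAB zinc finger proteins recruit, was at 205 to 216 CPM in C57BL/6 mice and at 248 to 272 CPM in B6.SLE123 mice, and rose by 0.33 (adjusted p = 5.96e-05 by edgeR's test). Of 11 partner genes of TRIM28 silencing elsewhere, 6 were higher and 0 lower, beside 26.7% and 26.6% of all genes. Among these partners, the HP1 genes Cbx5 and Cbx3 were at 0.67 and 0.40, and the methyltransferase gene Setdb1 was at 0.04 (adjusted p = 0.453).

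The signalling group had 10 of 14 genes called, 2 higher and 8 lower, where 53.4% of all genes were called, 26.7% higher and 26.6% lower; the same shares stand beside the groups that follow. Besides Dmpk, Dmwd, Ppm1n and Ccdc8, the falls included Vasp, an actin regulator gene (585, 561, 605 and 601 CPM against 383, 397, 389 and 438 CPM, log2 fold change -0.55), Mark4, a microtubule affinity kinase gene (-0.56), and Ppp5c, a protein phosphatase gene (-0.32). Calm3, a calmodulin gene, was higher, at 218 to 235 CPM against 268 to 302 CPM (log2 fold change 0.33, adjusted p = 0.000159 by edgeR's test), and Prkd2, a protein kinase D gene, was at -0.01 (adjusted p = 0.929). In membrane traffic and transport, 3 of 17 genes were higher and 5 lower, with 9 not called. The other transcription and RNA factors had 3 of 14 higher and 5 lower, among the latter the RNA helicase gene Dhx34 at -0.49. The metabolism, lipoprotein and ribosome group had 2 of 5 higher and 1 lower, and 3 of the 16 genes in no group were higher and 8 lower (Sympk, not called, is among the 16 through a misspelling in the list of transcription and RNA factors), among the latter Gpr4, a proton-sensing receptor gene, at -0.48. In the role plot, the surface protein, signalling, transport and other transcription groups, and the genes in no group, reach beyond -2, and the rest do not.

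**Figure D4:**
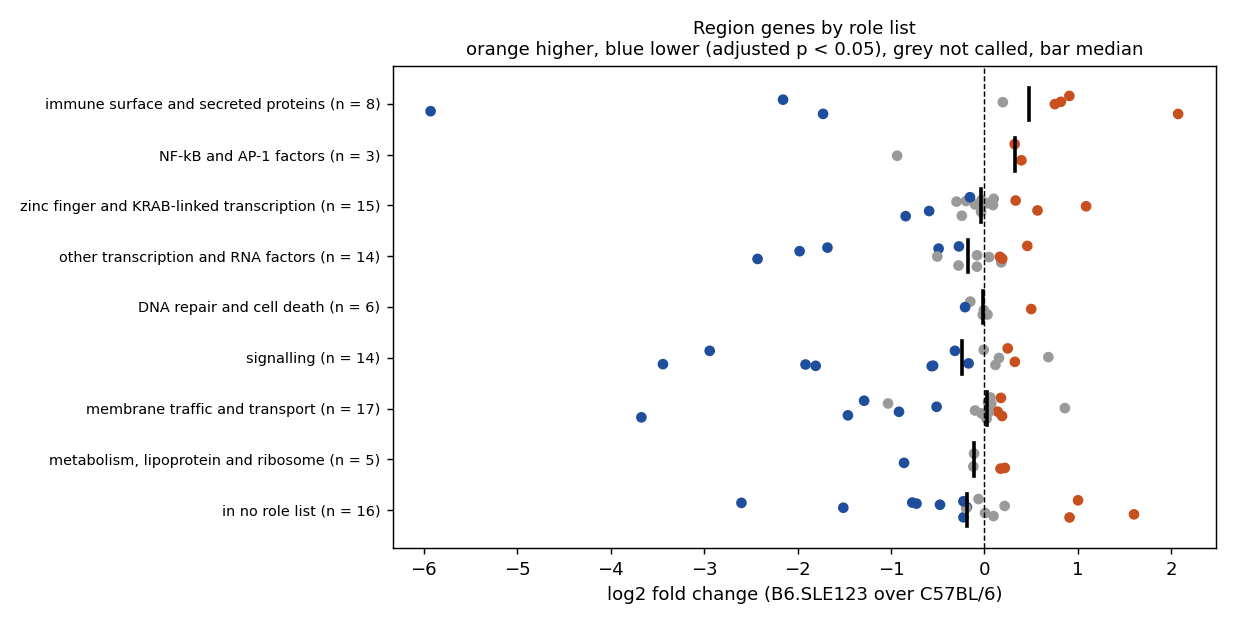
Log2 fold change (x axis, B6.SLE123 over C57BL/6) of the 98 region genes, grouped by role (y axis, with the number of genes). Orange, blue and grey points are genes called higher, called lower and not called at an adjusted p of 0.05, thick bars are group medians and the dashed line is the median of all genes in the table. Group medians lie between -0.24 for signalling and 0.47 for surface and secreted immune proteins.

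Divided by merged exon length, levels were among the highest of the region in Vasp (225 CPM per kb in C57BL/6 mice and 154 in B6.SLE123 mice), the selenoprotein gene Selenow (139 and 128), Relb (110 and 137) and Calm3 (93.4 and 117). Nop53, a ribosome assembly gene with 279 ± 9.34 CPM in C57BL/6 mice and 289 ± 14.3 CPM in B6.SLE123 mice (SD, n = 4), was at 0.05 on the log2 scale (adjusted p = 0.389 by edgeR's test). Selenow, at -0.12, did not pass the test either (adjusted p = 0.0538). These 5 strongly expressed genes thus differed by less than 1.5-fold, in either direction.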

How the data were processed

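RNA from CD11c-positive splenocytes of 4 C57BL/6 and 4 B6.SLE123 mice was sequenced with a stranded kit. The deposited values are raw counts per gene, which the authors made from reads on mm10; their processing notes name FastQC, cutadapt, STAR, featureCounts and DESeq2, with versions not given in the sources used here. The file's own comparison columns (fold changes and p-values) were not used, and 21 symbols turned into dates were restored by gene ID. Replicates are separate mice.

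Counts of all 13786 genes were fitted with edgeR 4.0.16 (R 4.3.3, TMM factors, glmQLFit and glmQLFTest, two-sided, Benjamini-Hochberg adjustment). Genes named were the members of role lists, the 8 largest called rises and falls without overlap and averaging 100 counts or more in either strain, genes near 0 in a strain and the highest levels; the members, lists and this rule were chosen with earlier results of these data known. Alternatives were DESeq2 1.42.0, limma-voom (limma 3.58.1), count filters, each mouse left out and a replicate block. The fit was tested on simulated data. A gene that the rule names is not reported here.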

Additional observations from a re-analysis of the deposited data

Results flagged for a closer look

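In 6 of 196 groups of 4 mice (98 genes in each strain), 1 mouse lay far from the other 3 by Dixon's criterion on log2 CPM; chance alone flags about 1 in 20 groups, or 9.8 here. In C57BL/6 mice these were Zscan18 in replicate 2 (1.86, group median 1.74) and Zfp128 in replicate 4 (2.96, group median 2.86). In B6.SLE123 mice they were Irf2bp1 in replicate 2 (5.50, group median 5.64), Gm19345 in replicate 1 (3.81, group median 4.49), and, in replicate 4, Zfp296 (4.76, group median 4.6) and Relb (9.23, group median 9.01). Ceacam16, whose exons overlap those of Gm19345, was also lowest in B6.SLE123 replicate 1.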

How the results depend on the processing

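Of 60 alternative values of the counts over the region and over all genes, 56 stayed within 1.5 times the reported count, and of 1901 for single genes and lists, 1797 kept direction and side of the threshold. With 60 region genes that overlap no other annotated gene, 34 were called and 12 changed more than 2-fold, with fewer genes tested. With at least 10 counts in every sample, 10 region genes changed more than 2-fold, beside 19, and all genes called more than 2-fold numbered 985, beside 1524, again with fewer genes tested. The filter of 10 counts kept 83 of the 98 region genes, so 10 of 83 stand beside 19 of 98. What part the smaller number of genes tested has in this was not tested. The filter removed low-count genes with large changes, among them Ceacam19, Exoc3l2, Nova2 and Ccdc8, which fell, and Mill2 and Pnmal2, which rose. Leaving out each mouse in turn gave 50 to 58 region genes called and 16 to 20 of them more than 2-fold. Over all genes, these numbers were 6496 to 7013 and 1399 to 1578. Deviations of same-numbered mice correlated at 0.0586 to 0.225, and those of differently numbered mice at -0.188 to 0.0995. Of 8 mice, 4 correlated best with their own number. These values do not settle whether the replicate numbers pair the mice. With the replicate number as a block, 56 region genes were called. Of the 57 called genes, 46 held in every alternative that gave a value; the others were Ap2s1, Clptm1, Eml2, Ercc2, Hif3a, Kptn, Mill2, Pla2g4c, Pnmal2, Strn4 and Zfp110. Signs turned, in genes that were not called, over the ranges with 1 mouse left out: Bbc3 -0.0782 to 0.0209, Cd96 -0.345 to 0.0511, Ceacam15 -0.0424 to 0.718, Gm19345 -0.0783 to 0.151, Mypop -0.117 to 0.312, Nkpd1 -0.78 to 0.0182, Opa3 -0.0061 to 0.0369, Ppp1r13l -0.0365 to 0.0986, Prkd2 -0.0728 to 0.0398, Rela -0.0347 to 0.0232, Rnf225 -0.242 to 0.369, Slc8a2 -0.0492 to 0.193, Tmem160 -0.0047 to 0.0606, Ube2m -0.0331 to 0.0167, Zfp128 -0.0198 to 0.0701, Zfp324 -0.0715 to 0.0131 and Zfp606 -0.086 to 0.00278 Gm19345 was also at -0.00625 with at least 10 counts, -0.00988 with the block and -0.0197 with limma-voom; the cause was not tested. Genes with few counts, such as Nova2 and Mill2, have the widest errors.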

Other observations

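Besides Zik1 and Mill2, the called rises of more than 2-fold were those of Pla2g4c, a phospholipase A2 gene, and Pnmal2, and both rest on few counts. Pla2g4c had 16, 10, 20 and 12 counts in C57BL/6 mice and 22, 66, 31 and 14 in B6.SLE123 mice, so the strains overlapped, and without B6.SLE123 replicate 2 its log2 fold change was 0.53 (adjusted p = 0.173 by edgeR's test). Pnmal2 had 3, 1, 4 and 1 counts in C57BL/6 mice and 10, 5, 9 and 7 in B6.SLE123 mice (1.60 on the log2 scale). Smaller falls that were called included Inafm1 (-0.77), the membrane trafficking gene Ehd2 (-0.91) and Bloc1s3 (-0.51), which encodes a subunit of the BLOC-1 complex of lysosome-related organelles.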
